A study of Mus musculus with 30 samples.

Results

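The 4 nascent RNA libraries described here are the vehicle arm of a washout experiment, 4 of the 30 samples of the series. They come from mouse E14 embryonic stem cells in which SPT16, the large subunit of the histone chaperone FACT, carries a C-terminal V5 tag and an auxin-inducible degron (AID), a tag through which auxin triggers destruction of the protein. All 4 cultures received ethanol (EtOH), the solvent of the auxin 3-indoleacetic acid (IAA), for 12 h and then fresh medium for 24 h. They were chosen by label: the EtOH libraries labelled Rep1 of the lines 10E and 11D were set against those labelled Rep2 of the same lines, because these sets lie apart on the second principal component of the counts. The choice therefore used the EtOH counts themselves, and every EtOH Rep1 to Rep2 difference below is a description with no test.

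The 4 IAA washout libraries, which the choice did not use, had 500 nM IAA for 12 h and then fresh medium for 24 h, and carry the same line and number labels. Every culture of both arms, controls included, carries the degron-tagged SPT16, and the 2 lines were targeted independently. The medium held serum, leukemia inhibitory factor (LIF), the GSK inhibitor CHIR99021 and a MEK inhibitor, per the labels. The labels do not say whether Rep1 and Rep2 were separate cultures, so a p-value measures only the spread between these libraries, which may be technical. The titles name Clone1 and Clone2 where the count table names 10E and 11D, and nothing pairs these names. Nascent RNA was measured by TT-seq: RNA made during 5 min in the presence of 4-thiouridine carries that nucleoside, by which it is purified and then sequenced.

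Embryonic stem cells in this medium are held in a naive state. LIF activates STAT3, the GSK inhibitor stabilises beta-catenin so that the repressor TCF7L1 leaves the pluripotency genes, and the MEK inhibitor blocks the ERK signal that drives exit from the state. Cultured lines are known to drift: imprinted loci such as Dlk1-Dio3 can lose expression, an extra copy of chromosome 8 is a frequent gain, and the Y chromosome can be lost.

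The EtOH libraries held 11068135 to 16554314 counts and the IAA libraries 6547992 to 10978586. Pou5f1, Nanog, Zfp42, Esrrb, Dppa5a and Tdh, markers of embryonic stem cells, were each above 1 CPM (the count relative to the TMM-scaled total of the library) in the EtOH libraries, and their summed level was 3200 and 3520 CPM in the libraries labelled Rep1 against 1990 and 2050 CPM in those labelled Rep2. Sox2 was listed at 0 in every library, and the cause was not tested. A listed 0, here or for Sox1 below, is therefore not read as absence of the RNA. The summed level of 7 fibroblast markers was at most 1.63 CPM, of 5 mesoderm markers at most 5.88 CPM, and of 7 primitive endoderm markers 8.98 to 9.90 CPM in Rep1 and 11.4 to 12.0 CPM in Rep2. The 5 neural markers summed to 7.25 and 11 CPM in Rep1 and 20.4 and 29.0 CPM in Rep2, of which Nes made 6.75 to 28.8 CPM in single libraries, and Sox1 was at 0. The 6 trophoblast markers summed to 15.5 and 17.3 CPM in Rep1 and to 11.6 and 17.2 CPM in Rep2. Whether these levels have a part in the differences below was not tested. In bulk libraries, fewer cells of a type and less RNA per cell cannot be told apart. Supt16, the gene of SPT16, ran from 57.0 to 89.9 CPM in the EtOH and from 91.7 to 132 CPM in the IAA libraries; the degron acts on the protein, so this checks no label.

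Before the programmes, a fact about the labels. By several measures the EtOH libraries labelled Rep1, of both lines, resembled the IAA libraries of line 10E, and the EtOH libraries labelled Rep2, of both lines, resembled the IAA libraries of line 11D. The share of counts on chromosome 8 was 5.55% and 5.32% in the EtOH libraries labelled 10E Rep1 and 11D Rep1, and 7.52% and 7.27% in those labelled 10E Rep2 and 11D Rep2. In the IAA libraries it was 5.30% and 5.13% for both 10E libraries and 7.30% and 7.56% for both 11D libraries. The high and low values did not overlap in either arm, but they followed the number in the EtOH arm and the line in the IAA arm. Wherever an EtOH library is named here, its line and number are those of its label. Whether labels, cultures or cell stocks were exchanged in one of the arms, or nothing was exchanged, cannot be told apart with these data.

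The Meg3 region gave the same arrangement. Meg3, Rian and Mirg are long noncoding RNAs of the imprinted Dlk1-Dio3 locus, read from the maternal chromosome, and Rian and Mirg host small nucleolar RNAs and miRNAs. Meg3 (chromosome 12, 109541001 to 109571726, plus strand, mm10) stood at 2.48 CPM in the library labelled 10E Rep1 and 2.49 CPM in that labelled 11D Rep1, against 136 CPM in 10E Rep2 and 194 CPM in 11D Rep2. In the IAA arm it stood at 4.89 and 3.56 CPM in the 10E libraries and at 99.5 and 92.6 CPM in the 11D libraries. Rian had 1.86 and 1.55 CPM in the EtOH Rep1 libraries and 150 and 204 CPM in the Rep2 libraries, with 5.08 and 1.85 CPM in IAA 10E and 109 and 84.2 CPM in IAA 11D. In each arm the low and the high libraries lay far apart. The log2 difference Rep1 minus Rep2 was -6.05 ± 0.20 (SE) for Meg3, -6.71 ± 0.21 for Rian and -5.71 ± 0.24 for Mirg. In the IAA fit, the log2 difference 10E minus 11D was -4.53 ± 0.35 for Meg3 (edgeR adjusted p = 1.37e-05), -4.92 ± 0.38 for Rian (1.49e-05) and -5.11 ± 0.39 for Mirg (1.37e-05).

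The difference filled a stretch of the locus. All 8 genes tested from Gm34081, 47.5 kb before the Meg3 start, to Mirg, 188.8 kb after it, were called higher in the libraries labelled Rep2. No fold is given for Mir433, with no count in either Rep1 library, or for Gm27379, with none in 11D Rep1 and 0.08 CPM in 10E Rep1. The other 6 differed by -6.71 to -5.58 on the log2 scale, and in the IAA libraries all 6 were called higher in 11D, by -5.50 to -4.09. Beyond the stretch, Dio3, which inactivates thyroid hormone and lies 738.1 kb away, differed by -1.72 ± 0.41, and Ppp2r5c, 906.1 kb away, by 0.26 ± 0.14. Degs2, 862.3 kb before the Meg3 start and low in level, differed by -2.81 ± 0.62. Of 21 genes tested within 1000 kb of that start, 10 were called higher in Rep2, the 8 of the stretch included. The 4 called higher in Rep1 were Yy1, Slc25a47, Wars and Wdr25, all before the stretch. Over all genes tested, 18.1% were called higher in Rep2 and 15.7% in Rep1. The start of Meg3 is printed because the whole stretch moved with it. The windows shown here and below reach 250 bases before and 50 after a gene's start, from RefSeq (GRCm38.p6); the first is chr12:109540746-109541045, plus strand, and its capitals mark TGACGTCA, the cAMP response element, which reads the same on both strands. The Plagl1 window, chr10:13090582-13090881, plus strand, is that of another imprinted gene of the same arrangement, and its capitals mark the E-box CACGTG, also the same on both strands.
Meg3: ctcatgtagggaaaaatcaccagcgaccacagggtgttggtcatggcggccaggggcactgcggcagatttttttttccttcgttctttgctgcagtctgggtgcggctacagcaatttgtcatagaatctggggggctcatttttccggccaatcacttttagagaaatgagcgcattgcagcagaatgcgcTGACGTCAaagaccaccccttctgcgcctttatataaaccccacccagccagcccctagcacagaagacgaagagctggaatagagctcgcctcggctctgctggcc
Plagl1: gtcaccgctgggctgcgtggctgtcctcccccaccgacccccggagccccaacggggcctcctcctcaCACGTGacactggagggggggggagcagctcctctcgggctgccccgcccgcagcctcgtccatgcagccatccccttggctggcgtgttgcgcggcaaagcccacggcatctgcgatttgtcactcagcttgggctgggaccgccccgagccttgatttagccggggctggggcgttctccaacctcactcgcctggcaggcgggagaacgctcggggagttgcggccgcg
TGACGTCA was held by 1.79% and CACGTG by 7.15% of all 32851 such windows. The Meg3 window held 13 CG pairs and the Plagl1 window 26, against a median of 7 over all windows. A match is a description of these letters only, and DNA methylation was not measured here.

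Further genes carried the split, in both directions. Plagl1, an imprinted zinc finger gene, had 30.0 and 35.0 CPM in the EtOH Rep1 libraries and 149 and 171 CPM in Rep2, and 30.5 and 32.0 CPM in IAA 10E against 185 and 169 CPM in IAA 11D. Grb10, an imprinted adaptor that restrains growth factor signalling, ran the other way, with 124 and 150 CPM in EtOH Rep1, 35.5 and 33.8 CPM in Rep2, 70.4 and 88.3 CPM in IAA 10E and 24.9 and 21.5 CPM in IAA 11D. The EtOH sets did not overlap for either gene. Of 43 imprinted genes tested, 4 were called higher in Rep1 and 19 in Rep2, where 15.7% and 18.1% of all genes tested were called. This list was made after the values were seen.

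Alk, a receptor tyrosine kinase, had 36.8 and 38.8 CPM in EtOH Rep1 and 2.70 and 3.94 CPM in Rep2, and in the IAA arm 28.9 and 53.8 CPM in 10E and 4.54 and 5.35 CPM in 11D. It separated the libraries without overlap by number in the EtOH arm and by line in the IAA arm. The log2 difference 10E minus 11D in the IAA fit was 3.00 ± 0.33 for Alk (edgeR adjusted p = 0.000346). Htra1, a secreted protease, Lrrn2, a leucine-rich repeat protein, Abca1, a cholesterol exporter, and Ntn1, the guidance ligand netrin, were likewise higher in Rep1, by 2.16 to 2.61 log2 units, and in IAA 10E, by 1.28 to 2.79. On the Rep2 side, Sgcz, a sarcoglycan on chromosome 8, differed by -3.99 ± 0.22 in EtOH and by -2.65 ± 0.38 in IAA 10E minus 11D, and Grin1, an NMDA receptor subunit, by -3.87 ± 0.29 and -3.60 ± 0.83.

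**Figure D1:**
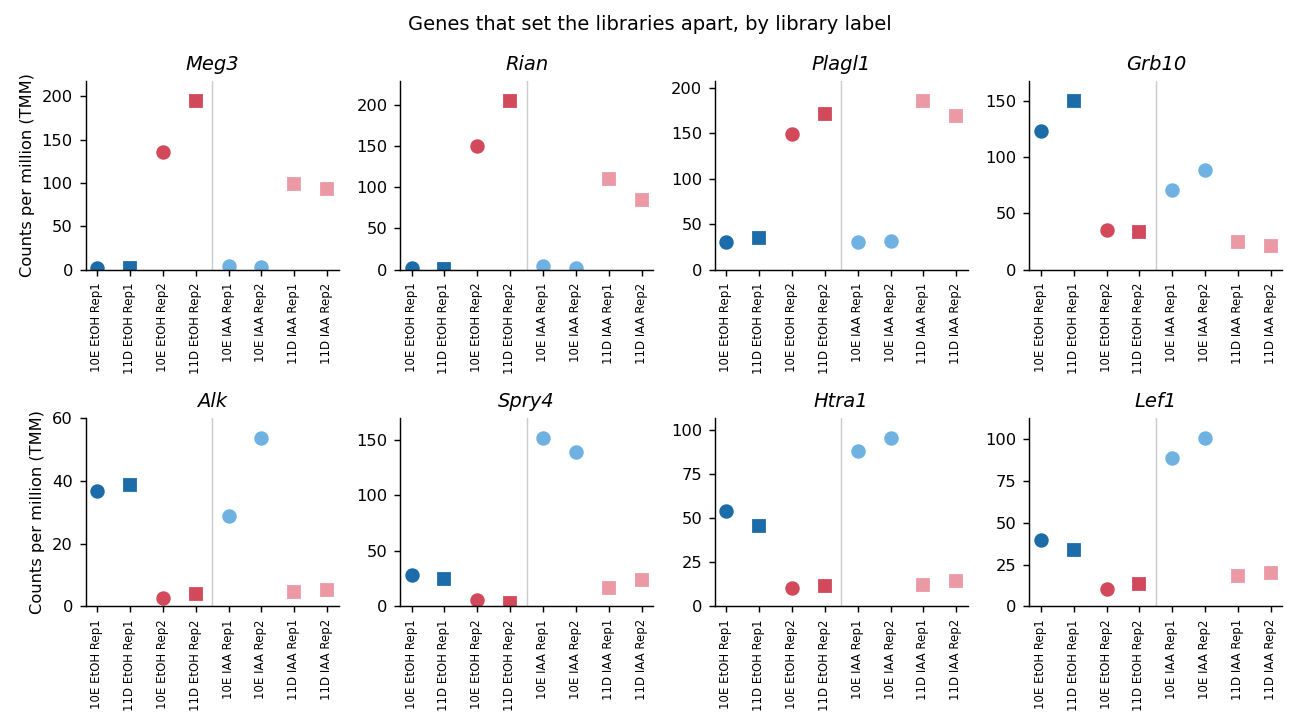
TMM-scaled CPM of 8 genes (1 panel each, linear axis from 0) in each of the 8 washout libraries, which are named on the x axis by label; circles are libraries labelled 10E and squares 11D, blue and red mark the sets that group together. Meg3 is at most 4.89 CPM in both EtOH Rep1 libraries and both IAA 10E libraries and at least 92.6 CPM in the other 4.

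Chromosome 8 stood apart from the other autosomes. The median log2 difference Rep1 minus Rep2 over its 860 genes tested was -0.47, while the medians of the other 18 autosomes ran from -0.07 to 0.08. Of these genes 46.9% were called higher in Rep2, against 11.7 to 19.8% on the other autosomes. In the IAA fit the median 10E minus 11D over 760 genes was -0.54, with -0.03 to 0.12 on the other autosomes. The chromosome 8 median was 0.09 for EtOH 10E minus 11D and -0.03 for IAA Rep1 minus Rep2. The log2 ratio of 3 to 2 gene copies is 0.585; copy number itself was not measured.

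The Y chromosome had a median of -0.91 over 9 genes in EtOH Rep1 minus Rep2 and -0.84 in IAA 10E minus 11D. Unlike chromosome 8, it also differed between the labelled lines in the EtOH arm, with a median of -0.46 for 10E minus 11D. There 44.4% of its genes were called higher in 11D, against 4.22 to 12.8% on the autosomes other than 8. For IAA Rep1 minus Rep2 the Y median was -0.02. The share of counts on the Y chromosome ran the other way in the EtOH arm, at 0.129% and 0.144% in Rep1 and 0.100% and 0.117% in Rep2, but not in the IAA arm, at 0.0884% and 0.0861% in 10E and 0.108% and 0.107% in 11D. The 1 Y gene called higher in EtOH Rep1 was the predicted gene Gm47283, with 889 and 977 CPM in Rep1 and 535 and 617 CPM in Rep2. Zfy1, a zinc finger gene of the male germline, had 2.24 and 2.99 CPM in EtOH Rep1 against 12.2 and 28.3 CPM in Rep2, and 2.54 and 3.43 CPM in IAA 10E against 12.1 and 8.14 CPM in 11D. Kdm5d, a histone demethylase, had no count in either EtOH Rep1 library and 0.92 and 1.73 CPM in the Rep2 libraries. Uty, also a histone demethylase, was the 1 gene of 7 on a Y-linked list whose sets overlapped, with 45.7 and 67.2 CPM in Rep1 and 52.8 and 105 CPM in Rep2. Of that list, made after the values were seen and without Gm47283, 6 of 7 genes tested were called higher in Rep2 and none in Rep1. Over all genes tested, 18.1% were called higher in Rep2 and 15.7% in Rep1. Both Rep1 libraries lay below both Rep2 libraries for 29.0% of all genes tested, and above them for 26.5%.

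**Figure D2:**
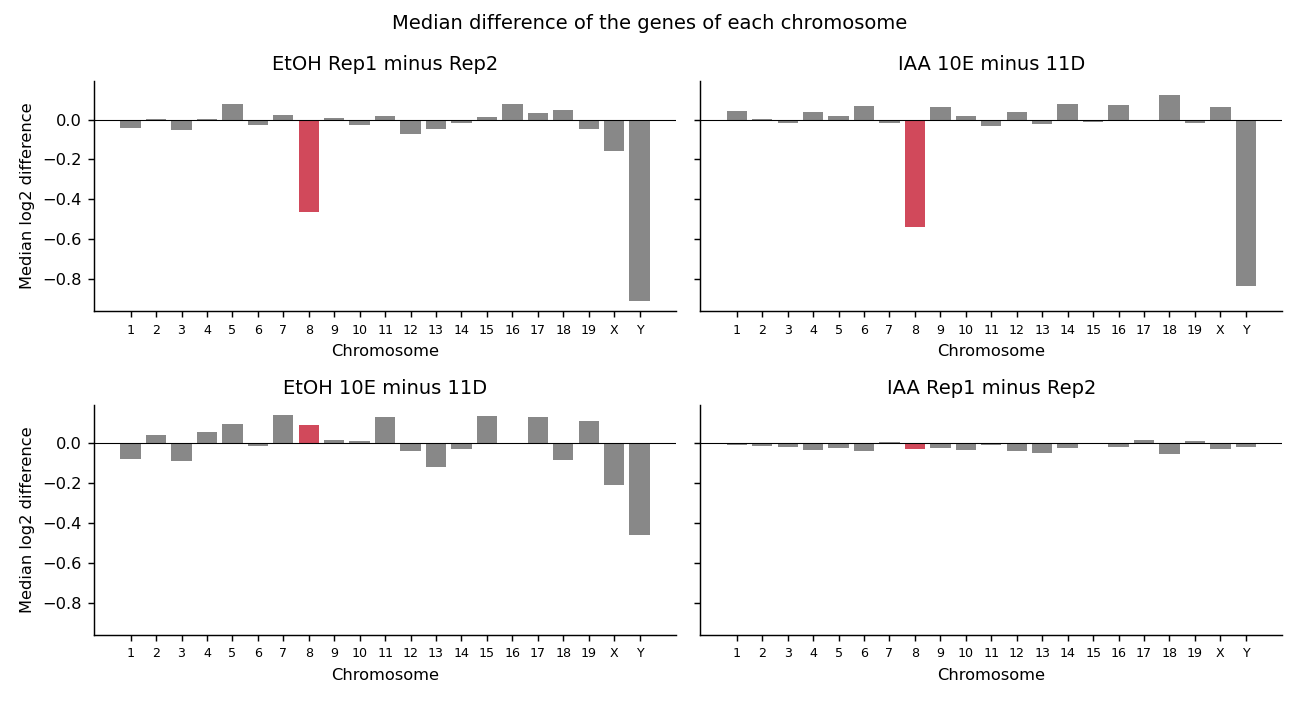
Median log2 difference of the genes tested on each chromosome, for the 4 contrasts named above the panels; bars start at 0 and chromosome 8 is red. Its median is -0.47 for EtOH Rep1 minus Rep2 and -0.54 for IAA 10E minus 11D, and lies between -0.03 and 0.09 in the other panels.

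Across all genes, the EtOH fit with line as block called 2637 of 16800 genes higher in the libraries labelled Rep1 (15.7%) and 3046 higher in those labelled Rep2 (18.1%) by edgeR's quasi-likelihood test at a false discovery rate (FDR) of 0.05. The libraries were chosen for this contrast, so these counts, and those of the gene lists below, describe these 4 libraries and support nothing beyond them. They depend on the tool and the spread it assumes: DESeq2 called 1481 and 1205, and a fit of all 8 libraries 533 and 796. Between the lines as labelled, 1912 genes were called in the EtOH arm (11.4%), of which 1439 were higher in 11D.

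In the IAA libraries, which the choice did not use, no gene of 14683 was called between Rep1 and Rep2 by edgeR (0%), with 109 at an unadjusted p under 0.05, and DESeq2 also called 0. By line, 174 genes were called higher in 10E (1.19%) and 137 higher in 11D (0.933%), 2.12% in either direction. Loci with ribosomal RNA-like reads took 30.1 to 41.1% of the IAA counts and 7.15 to 11.5% of the EtOH counts. These 7 loci were picked for a mean above 0.2% of the IAA counts and over 3 times their EtOH share. The direction of that contrast was therefore fixed by the rule. Their part in the calls was not tested beyond the fits without them. The comparison by line was chosen after the values were seen, and it holds any line difference in the response to IAA as well. Of the 164 genes called higher in IAA 10E and tested in the EtOH arm, both EtOH Rep1 libraries lay above both Rep2 libraries for 100, and below them for 13, against 26.5% and 29.0% of all genes. Of the 136 called higher in IAA 11D, both EtOH Rep1 libraries lay below both Rep2 libraries for 127 and above them for none. By line label the EtOH libraries did not follow these calls: both EtOH 10E libraries lay above both 11D libraries for 9 of the 164 genes and below them for 15, against 17.6% and 15.2% of all genes.

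Counted by calls, 209 genes were called in both arms with Rep1 on the side of 10E or Rep2 on the side of 11D, and 13 the other way. They comprise 87 genes higher in IAA 10E and EtOH Rep1, which are 53% of the former and 3.34% of the latter among genes tested in both arms, and 122 higher in IAA 11D and EtOH Rep2, which are 89.7% and 4.64%. DESeq2 gave 85 and 3, the fit of all 8 libraries 259 and 7, and the fits without ribosomal RNA-like loci 446 and 38. Leaving out 1 library at a time gave from 82 (without EtOH 10E Rep2) to 1029 (without IAA 11D Rep2) in the first sense, and from 1 (without either EtOH 11D library) to 610 (without IAA 10E Rep1) in the second. Over 14395 genes, which are not independent replicates, Pearson's r between EtOH Rep1 minus Rep2 and IAA 10E minus 11D was 0.415, and -0.176 between the line differences of the arms. Fits with 1 library left out took the other libraries of both arms together, unlike the separate fits behind 0.415. In them the first r was lower, from 0.212 (without IAA 11D Rep1) to 0.319 (without EtOH 11D Rep2). The joint fits also filtered the genes anew, and the fit of all 8 libraries kept 16517. The parts of the joint fit, of its genes and of the lost library in this drop are not separated here. Without an IAA library the IAA arm had no spread of its own, and the counts above used that of the EtOH arm. The EtOH and IAA contrasts share no library. A test of the line difference in the IAA arm against that in the EtOH arm, in the 8-library fit, called 0.636% of 16517 genes by edgeR at an FDR of 0.05.

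**Figure D3:**
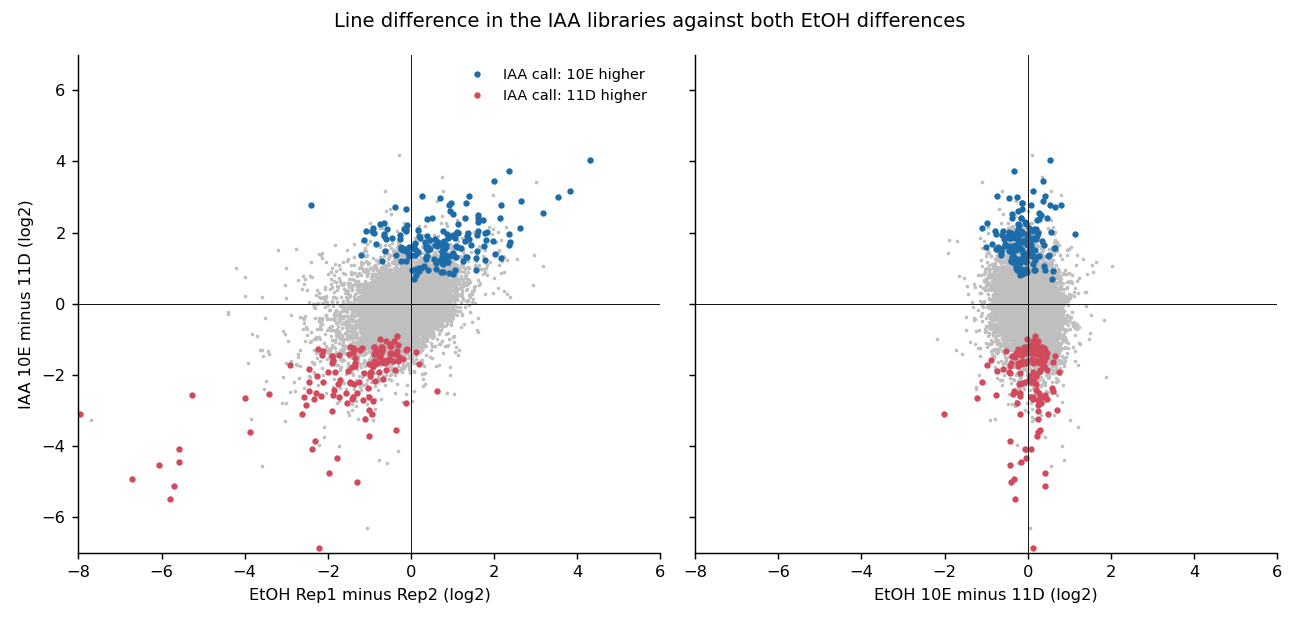
Log2 difference 10E minus 11D in the IAA libraries (y axis) against EtOH Rep1 minus Rep2 (left) and EtOH 10E minus 11D (right), 1 point per gene tested in both arms; blue and red are genes called in the IAA arm at FDR 0.05. The called genes spread along the diagonal on the left and stand upright near 0 on the right; a few points lie beyond the axis limits.

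The naive pluripotency network held more genes called higher in the libraries labelled Rep1 than in those labelled Rep2. Of its 31 genes, 18 were called higher in Rep1 and 3 in Rep2, with a median log2 difference of 0.43, against -0.03 over all genes tested. For this list and those that follow, the shares called over all genes were 15.7% for Rep1 and 18.1% for Rep2, and in the bin of the most highly expressed genes, which starts at 63.8 CPM, 38.3% and 11.4%. Esrrb, an orphan nuclear receptor that sustains self-renewal, stood at 2403.5 and 2134.5 CPM in the libraries labelled 10E Rep1 and 11D Rep1 and at 1285 and 1190.0 CPM in 10E Rep2 and 11D Rep2. Tdh, threonine dehydrogenase, had 427 and 399 CPM against 201 and 184 CPM. Neither gene's sets overlapped, and the differences were 0.88 ± 0.14 and 1.11 ± 0.14. Gbx2, a homeobox target of STAT3, differed by 1.58 ± 0.27, Stat3 by 0.94 ± 0.14, and Prdm14, which represses FGF signalling and DNA methylation genes, by 0.93 ± 0.15. Dppa3, a maternal factor that protects DNA from demethylation, went the other way, with 0.46 and 0 CPM in Rep1 and 2.38 and 1.83 CPM in Rep2, as did Klf2, a Kruppel-like factor on chromosome 8, by -0.49 ± 0.14.

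Among the core factors, Pou5f1 had 151 and 121 CPM in Rep1 and 113 and 97.9 CPM in Rep2, a difference of 0.37 ± 0.14. Nanog had 147 and 144 CPM against 129 and 137 CPM (0.14 ± 0.14, not called), and Zfp42, a naive marker on chromosome 8, 332 and 349 CPM against 276 and 332 CPM (0.18 ± 0.14, not called). Klf4 differed by 0.52 ± 0.14 and Sall4, a zinc finger partner of OCT4, by 1.09 ± 0.14. In the IAA arm none of the 30 naive genes tested was called by line in either direction; their median 10E minus 11D was 0.20, and Esrrb stood at -0.04 ± 0.16. In simulated IAA libraries the fit recovered 18.0% of 2-fold and 99.0% of 4-fold changes. That simulation gave all genes 1 spread and changed only genes with a mean above 100 counts. Whether the lack of calls reflects smaller differences or low power was not tested.

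Genes that answer to Wnt and to ERK signalling were more often called higher in Rep1 than in Rep2. Of 16 Wnt targets and antagonists tested, 8 were called higher in Rep1 and none in Rep2, with a median of 0.57. The size differed between the lines as labelled, with medians of 0.73 in 10E and 0.23 in 11D; the fitted median was 0.30 and 0.29 without EtOH 10E Rep1 or Rep2, and 0.73 without either EtOH 11D library. Axin2, the feedback scaffold that destroys beta-catenin, had 340 and 270 CPM in Rep1 against 138 and 104 CPM in Rep2, and Sp5, a zinc finger repressor of the same pathway, 29.6 and 20.3 CPM against 7.33 and 5.39 CPM. Lef1, a DNA-binding partner of beta-catenin, had 39.5 and 33.8 CPM against 10.6 and 13.6 CPM. All of these sets lay apart. The mesoderm gene T and the trophectoderm and posterior gene Cdx2 were low everywhere: T had 3.56 and 2.60 CPM in Rep1 and 0.14 and 0.28 CPM in Rep2, and Cdx2 3.87 and 3.37 CPM against 0.32 and 0.05 CPM.

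The members parted in the IAA arm. Lef1 differed by 2.30 ± 0.30 (10E minus 11D, edgeR adjusted p = 0.00144), T by 3.17 ± 0.59 (0.0153) and Cdx2 by 4.03 ± 0.95 (0.0440), and these 3 were called. IAA 11D Rep1 had no Cdx2 count, and the Cdx2 value moved to 8.06 without IAA 10E Rep2 and 8.02 without IAA 11D Rep2. Axin2 had 287 and 246 CPM in IAA 10E and 235 and 267 CPM in IAA 11D, a difference of 0.08 ± 0.23, and Sp5 0.29 ± 0.32 (adjusted p = 0.905 and 0.708). The window at the Sp5 start is printed because Sp5 was the 1 gene, of 14 in the list with a RefSeq window, that held the TCF/LEF motif CTTTGAT on either strand, a motif found in 3.73% of all windows; capitals mark it in chr2:70474673-70474972, plus strand.
Sp5: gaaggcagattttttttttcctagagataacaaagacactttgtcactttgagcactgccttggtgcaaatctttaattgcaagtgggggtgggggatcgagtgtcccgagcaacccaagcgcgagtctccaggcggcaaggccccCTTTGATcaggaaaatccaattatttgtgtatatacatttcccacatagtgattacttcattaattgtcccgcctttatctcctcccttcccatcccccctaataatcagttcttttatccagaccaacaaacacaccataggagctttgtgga

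Of 12 feedback genes of the ERK pathway, 7 were higher in Rep1 and 1 in Rep2, with a median of 0.48. Spry4, a Sprouty inhibitor of receptor signalling, had 28.4 and 24.9 CPM in Rep1 against 5.41 and 3.33 CPM in Rep2, and in the IAA arm 152 and 139 CPM in 10E against 16.3 and 23.5 CPM in 11D. Its IAA difference was 2.88 ± 0.31 (edgeR adjusted p = 0.000338). Spry2 differed by 2.00 ± 0.16 in the EtOH arm, Dusp6, an ERK phosphatase, by 1.74 ± 0.22 and the ETS factor Etv1 by 1.26 ± 0.16. None of the last 3 was called in the IAA arm, where they differed by 0.74 ± 0.29, 1.33 ± 0.34 and 1.04 ± 0.42. Dusp5, a nuclear ERK phosphatase, ran the other way, with 8.52 and 7.91 CPM in Rep1 and 22.8 and 15.9 CPM in Rep2.

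Immediate early genes, which fire within minutes of a stimulus or of handling, were higher in the libraries labelled Rep2. Of 17 tested, 10 were called higher in Rep2 and none in Rep1, all 17 had a negative sign, and their median was -1.14. Jun, a subunit of AP-1, had 3.25 and 1.99 CPM in Rep1 and 9.21 and 6.28 CPM in Rep2, and Fos, its partner, 1.86 and 0.61 CPM against 4.68 and 2.53 CPM. Btg2, an antiproliferative gene, had 27.9 and 21.5 CPM against 85.9 and 50.8 CPM. The sets did not overlap for these 3, which differed by -1.57 ± 0.28, -1.62 ± 0.39 and -1.42 ± 0.15. Most members are low, with a median level of 6.90 CPM, and Jund, Ier2 and Junb lie on chromosome 8. In the IAA arm none of the 17 tested was called by line. Their median 10E minus 11D was -0.52, with a positive sign for 6, against a median of -0.01 over all genes tested.

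Stress lists differed in their direction. Of 22 genes of the integrated stress response, 10 were called higher in Rep2 and 1 in Rep1 (median -0.32, and -0.17 without either EtOH 10E library). Ddit4, an inhibitor of mTORC1 that also answers to low oxygen, had 8.21 and 6.25 CPM in Rep1 and 31.0 and 22.0 CPM in Rep2, and Atf5, a transcription factor of the response, 12.9 CPM in each Rep1 library against 35.4 and 26.5 CPM. Atf4, the factor that leads it, overlapped between the sets (63.9 and 54.6 CPM against 86.1 and 55.5 CPM). Of 25 p53 targets, 12 were higher in Rep2 and 3 in Rep1 (median -0.36); Pmaip1, which encodes NOXA, differed by -1.64 ± 0.34, while Cdkn1a, the p21 gene, and Mdm2, the p53 ligase, were not called (-0.25 ± 0.14 and 0.19 ± 0.14). Of 20 regulators induced by hypoxia, 11 were higher in Rep2 and 1 in Rep1 (median -0.45), among them Ndrg1, a stress-responsive gene, with 27.8 and 24.8 CPM against 63.5 and 45.1 CPM. In the IAA arm the median 10E minus 11D was -0.44 for the integrated stress response, -0.12 for p53 targets and 0.12 for the hypoxia list.

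Heat shock chaperones were divided, with 6 of 15 higher in Rep1 and 3 in Rep2, and their median of 0.16 became -0.18 without either EtOH 11D library; Hsph1 differed by 0.77 ± 0.14 and Dnajb1, on chromosome 8, by -0.81 ± 0.15. Genes of endoplasmic reticulum stress were mostly on the Rep1 side, 7 of 18 against 2, with Pdia4, a disulfide isomerase, at 0.84 ± 0.14; the 2 on the Rep2 side, Calr and Herpud1, both lie on chromosome 8. Of 22 genes of NRF2 and glutathione defence, 9 were higher in Rep1 and 6 in Rep2.

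Growth lists held more genes called higher in Rep1 than in Rep2, as did highly expressed genes at large. Myc, the growth regulator, had 8.67 and 8.08 CPM in Rep1 and 1.70 and 1.59 CPM in Rep2, a difference of 2.35 ± 0.29, and 16.4 and 14.2 CPM in IAA 10E against 4.13 and 5.57 CPM in IAA 11D (1.65 ± 0.35, edgeR adjusted p = 0.0282). Mycn, its paralogue, overlapped between the sets, at 42.0 and 35.7 CPM against 55.6 and 34.0 CPM. Of 30 genes of Myc and growth control, 12 were higher in Rep1 and 1 in Rep2 (median 0.26), with Rrn3, a factor of RNA polymerase I, at 0.91 ± 0.14 and Mxd4, a MYC antagonist, at -1.08 ± 0.25. Of 74 cytosolic ribosomal protein genes tested, 22 were higher in Rep1 and 1 in Rep2 (median 0.24, and 0.15 to 0.34 with 1 library left out), fewer in proportion than the 38.3% called higher in Rep1 in the bin of highest level, where the median of these genes, 111 CPM, lies. None was called in the IAA arm by line, where the median was -0.46. Ribosomal protein genes share sequence with many pseudogenes, so their counts are less certain.

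Of 39 nuclear genes of oxidative phosphorylation, 18 were higher in Rep1 and none in Rep2 (median 0.33), with Cox5a, a subunit of cytochrome oxidase, at 107 and 94.6 CPM against 65.2 and 60.7 CPM. Of 28 genes of sterol and lipid synthesis, 12 were higher in Rep1 and 2 in Rep2 (median 0.31), with Sqle, squalene epoxidase, at 80.3 and 80.6 CPM against 41.7 and 38.5 CPM. Of 24 G1/S and replication genes, 12 were higher in Rep1 and 2 in Rep2 (median 0.33, but 0.16 without either EtOH 11D library and 0.46 without either EtOH 10E library), while 22 genes of G2 and mitosis gave 5 and 4. In glycolysis, 11 of 24 genes were higher in Rep1 and 4 in Rep2. Hexokinase Hk2 had 335 and 274 CPM in Rep1 against 154 and 132 CPM in Rep2, and Slc16a3, a lactate exporter, the reverse, 54.0 and 36.8 CPM against 112 and 79.5 CPM.

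Formative and primed genes were split evenly, with 8 of 21 on each side. Lefty1, a secreted Nodal antagonist, had 2.32 and 1.55 CPM in Rep1 and 17.5 CPM in each Rep2 library, and Otx2, a factor of the formative state, 2.71 and 2.49 CPM against 9.72 and 8.81 CPM. In the IAA arm Otx2 was again lower in 10E (-1.91 ± 0.43, edgeR adjusted p = 0.0375), whereas Lefty2, also a Nodal antagonist, was lower in EtOH Rep1 (-0.74 ± 0.19) but higher in IAA 10E (2.24 ± 0.34, adjusted p = 0.00511). Of 12 germline genes, 6 were higher in Rep2 and none in Rep1; the group is low, with a median level of 2.61 CPM. Among signalling lists, 5 of 14 BMP genes were higher in Rep1, 6 of 14 Hippo-YAP targets in Rep1 and 3 in Rep2, and 5 of 14 LIF and STAT3 genes on each side.

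The level of a gene went with the direction. With the genes in 5 bins of equal size by mean EtOH level, the median difference rose from -0.40 in the lowest bin to 0.22 in the highest, and the Rep1 libraries had 22739 and 23158 genes with a count against 24803 and 24943 in Rep2, whose libraries were deeper. With each gene's difference centred on the median of its level bin, the medians were 0.31 for the naive network, 0.49 for Wnt, 0.48 for ERK feedback, 0.24 for oxidative phosphorylation and -1.13 for immediate early genes, while that of the ribosomal protein genes was 0.05, that of Myc and growth control 0.13 and that of G1/S 0.18. Counts were of whole genes, introns included, and over 5 bins of the exonic share of a gene the medians ran from -0.17 to 0.04.

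**Figure D4:**
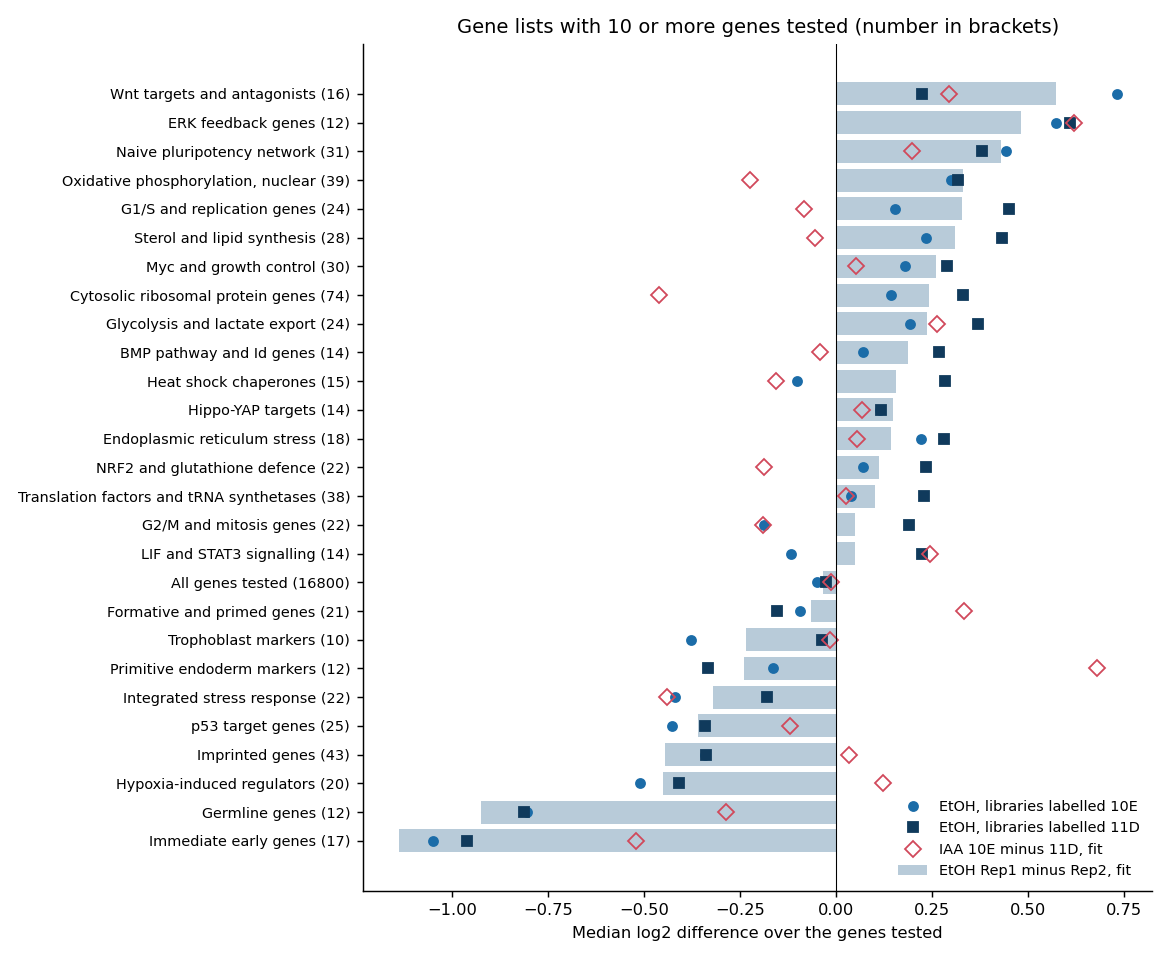
Median log2 difference of each gene list with 10 or more genes tested: bars are EtOH Rep1 minus Rep2 in the fit, blue points the same ratio in the libraries labelled 10E and 11D alone, and open diamonds IAA 10E minus 11D. In the fit, immediate early genes stand lowest at -1.14 and Wnt targets highest at 0.57, but the Wnt median is 0.23 in 11D alone, below several other lists; the diamonds of several lists lie on the other side of 0 from their bars.

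**Figure D5:**
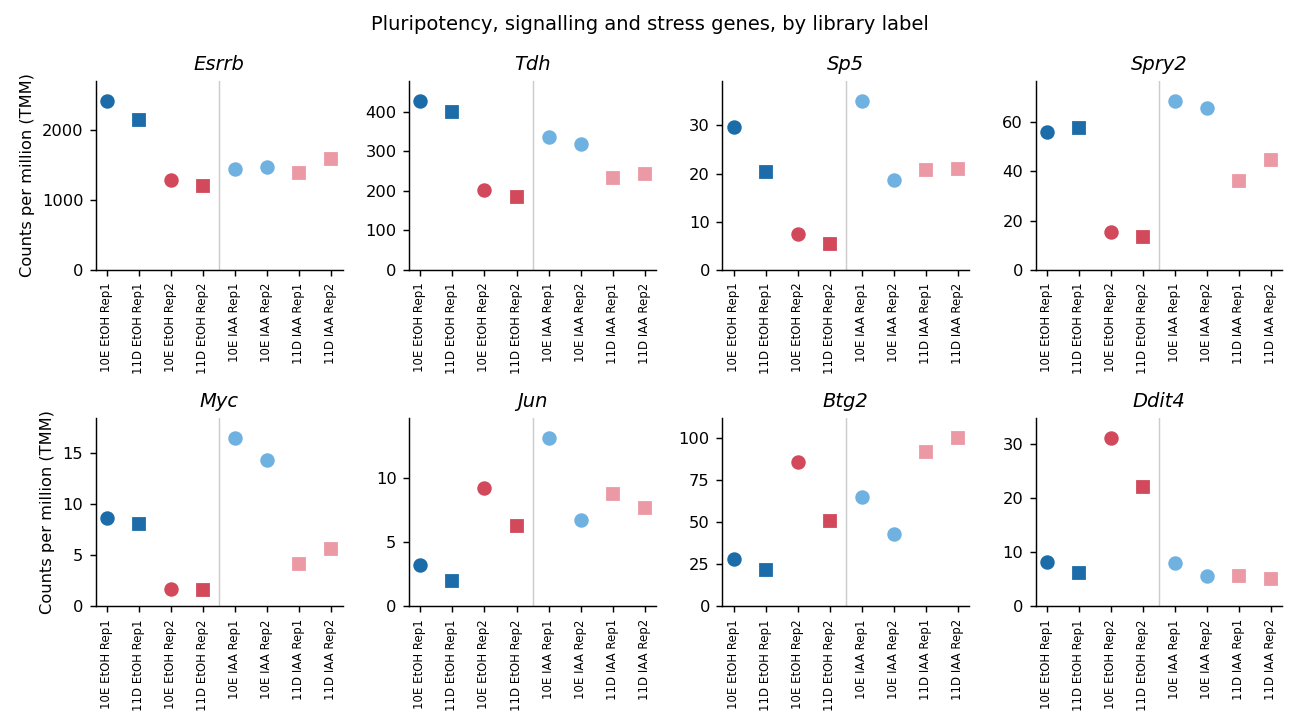
TMM-scaled CPM of 8 genes (linear axes from 0) in each washout library, named by label on the x axis, with circles for 10E and squares for 11D. Esrrb, Tdh, Sp5, Spry2 and Myc are higher in both EtOH Rep1 libraries, and Jun, Btg2 and Ddit4 in both EtOH Rep2 libraries; among the IAA libraries Esrrb, Sp5 and Jun overlap between lines.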

How the data were processed

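The washout experiment was analysed from the deposited raw counts of read pairs per gene, made by the authors with featureCounts 2.0.1 over whole genes on the reverse strand, per the file headers; STAR, deepTools and mm10 are named in the submitters' processing notes, with versions not given in the sources used here. Groups follow titles and column headers. The 55291 gene names were matched to GENCODE M21 (96.4%). Counts were fitted with edgeR 4.0.16 (quasi-likelihood, robust, two-sided, TMM, filterByExpr) in R 4.3.3, with line as block, separately for the 4 EtOH and the 4 IAA libraries, with Benjamini-Hochberg adjustment over all genes tested. Each fit has 1 residual degree of freedom and leans on the spread shared between genes. In the EtOH fit the median weight of that shared spread was infinite. An SE of the EtOH fit is therefore, for most genes, not a measure of that gene's own variation. CPM uses TMM-scaled library sizes of the 8 libraries. DESeq2 1.42.0 and other settings were alternatives. Every fit with 1 library left out took the other libraries of both arms in 1 fit. The fits were tested on simulated data with 1 spread for all genes of an arm. In each contrast 100 genes per fold size were changed, all with a mean above 100 counts. In the EtOH contrast 100% of 2-fold and 100% of 4-fold changes were recovered, with 12 false calls among 16735 genes. In the IAA line contrast 18.0% and 99.0% were recovered, with 1 false call among 14569 genes. Recovery at lower counts and a spread that varies between genes were not simulated.

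The libraries, gene lists and comparisons were chosen with earlier results of these data known. Genes were named by rule: the 10 highest and 10 lowest called in the EtOH fit at 5 CPM or more with the same sign in both lines and an established name, up to 5 called members of each list, a set of standard markers whatever their call, and genes called in both arms by number, of which there were none; others named were chosen after their values were seen. No pair of libraries agreed within sampling noise, the lowest chi-square per degree of freedom being 12.2. Samples that share a line in the labels were checked for pairing: the correlation of the line deviations between the EtOH Rep1 and Rep2 libraries was 0.285 over genes. The authors' deposited tables of their own comparisons were not used here. Some genes that the rule names are not reported here.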

Additional observations from a re-analysis of the deposited data

Results flagged for a closer look

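The difference between the lines, 10E minus 11D, was not the same in the IAA and the EtOH arm. In the fit of all 8 libraries, a test of that difference itself, added after the values were seen, called 105 of 16517 genes (0.636%) by edgeR at an FDR of 0.05, 51 with a higher and 54 with a lower value in the IAA arm. The chromosome 8 median of 10E minus 11D was -0.54 in the IAA arm and 0.0927 in the EtOH arm; this pair of medians was not tested.

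Among the genes named by rule or after their values were seen, those that follow passed that test. Some had been named because they were called by line in the IAA arm, so for them passing was in part built in. The IAA value exceeded the EtOH value, on the log2 scale, by 1.96 for Abca1, 2.44 for Adgrl2, 3.28 for Alk, 1.83 for Apcdd1, 1.95 for Bnip3, 1.88 for Grb10, 2.71 for Htra1, 2.35 for Itpr2 and 1.38 for Lama1. Of the others above 0, the value was 2.37 for Lef1, 2.28 for Lefty2, 2.52 for Lrmda, 2.12 for Lrrn2, 1.41 for Ntn1, 2.58 for Sema5a, 3.20 for Sox5 and 2.47 for Spry4. It was lower in the IAA arm, at -3.08 for Bc1, -2.25 for Gdf15, -3.84 for Grin1, -1.66 for Herpud1, -2.95 for Kcnk1 and -3.06 for Ly6a, and further at -4.18 for Meg3, -5.45 for Mirg, -2.21 for Nfix, -2.29 for Plagl1 and -4.67 for Rian. Line labels, cultures and a response to IAA that differs between the lines cannot be told apart here. Groups of 2 libraries were too small for a search for outlying samples.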

How the results depend on the processing

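The number of genes called between the EtOH libraries labelled Rep1 and Rep2, 2637 and 3046, fell to 1481 and 1205 with DESeq2, to 533 and 796 in the fit of all 8 libraries, and to 550 and 1097 with no replicate block, that is, without pairing the libraries by line. Leaving out 1 library gave 50 to 2786 and 101 to 3040; where it left 1 EtOH library in a set, the spread came from the other libraries. The 1912 genes called between the labelled lines in the EtOH arm became 656 with DESeq2, 0 in the 8-library fit and 0 to 1990 when 1 library was left out. By number in the IAA arm, 1 gene was called without the filter on low counts and 1 without the ribosomal RNA-like loci, each higher in Rep2 and also called that way in the EtOH arm (1 gene in each setting); leaving out 1 library gave 0 to 119 higher in Rep1, 1 to 763 higher in Rep2 and 0 to 372 also called the same way in EtOH.

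Genes higher in IAA 10E and in IAA 11D, 174 and 137, became 424 and 289 with RLE size factors, 84 and 59 with DESeq2, 359 and 298 without the filter, 349 and 342 in the 8-library fit, 438 and 362 without the ribosomal RNA-like loci, and 369 to 2188 and 351 to 1668 when 1 library was left out. The genes called in both arms in the matching sense and the other way became 390 and 30 with RLE size factors, 85 and 3 with DESeq2, 356 and 29 without the filter, 446 and 38 without those loci, and 82 to 1029 and 1 to 610 when 1 library was left out; the 8-library fit gave 7 the other way. Each fit with 1 library left out took the other libraries of both arms together. Without an IAA library, the IAA arm had no spread of its own. The spread then came from the EtOH libraries, where it was smaller (11.1% against 21.8%). Those ranges therefore do not show how far the loss of 1 library alone moves the calls. The cause of the other moves was not tested.

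Runx1t1 ran from -1.23 to 0.11 in the EtOH contrast when 1 library was left out, with 0.11 without either 11D EtOH library. With 1 library left out, list medians reached or crossed 0 for trophoblast markers (-0.39 to 0.00), heat shock chaperones (-0.18 to 0.27), G2/M genes (-0.18 to 0.20), LIF and STAT3 genes (-0.12 to 0.24), mesoderm (-0.29 to 0.64) and neural markers (-0.31 to 0.17) and FACT subunits (-0.20 to 0.11). Centred on the level bin, medians that changed sign were heat shock chaperones at -0.03, G2/M genes at -0.04, neural markers at 0.02, trophoblast markers at 0.08, translation factors at -0.09, Hippo-YAP targets at -0.07 and primitive endoderm markers at 0.04. The fitted biological coefficient of variation was 11.1% in the EtOH and 21.8% in the IAA libraries, which were also the shallower ones; the parts of depth and spread in the fewer IAA calls were not tested.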

Other observations

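The remaining lists gave these values for EtOH Rep1 minus Rep2, against a median of -0.03 over all genes tested and calls of 15.7% for Rep1 and 18.1% for Rep2. Of 38 translation factors and tRNA synthetases, 9 were higher in Rep1 and none in Rep2, with a median of 0.10; the list's median level, 109 CPM, lies in the bin of highest level, where 38.3% of genes were called higher in Rep1. Of 7 genes encoded by the mitochondrial genome, 3 were higher in Rep2 and none in Rep1 (median -0.24), while the nuclear genes of oxidative phosphorylation had a positive median. Of 8 genes of the 2-cell-like state, 1 was higher in Rep1, and the list is low, with a median level of 0.652 CPM. Primitive endoderm markers gave 3 of 12 higher in Rep1 and 2 in Rep2, trophoblast markers 2 and 1 of 10, neural markers 1 and 1 of 4, and mesoderm and fibroblast markers 1 and 0 of 4 each. Neither of the 2 FACT subunit genes was called.

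Noncoding classes lay on the Rep2 side. The median difference of 923 lincRNA genes was -0.35 and that of 732 antisense genes -0.24, against 0.01 for 13589 protein-coding genes. Genes called higher in Rep1 had a median level of 61.5 CPM and those called higher in Rep2 of 10.3 CPM, so class and level move together, and their parts were not tested.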
